A study of Mus musculus with 8 samples.

Results

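Aminoacyl tRNA synthetases are the enzymes that join each amino acid to its tRNA, and 37 genes of this family were followed in mouse liver. They were taken from the 35976 genes of the deposited table by symbol. A single letter followed by ars or ars2 was accepted, together with Eprs, Farsa and Farsb. Symbols that end in 2 were taken as mitochondrial (17 genes) and the others as cytosolic (20 genes), with Gars and Kars known to serve both compartments. All 37 passed the filter on low counts.

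RNA of whole liver had been sequenced in 5 libraries of genotype CTRL and 3 of genotype OPA1 LKO, the latter labelled as a hepatocyte knockout of OPA1, a GTPase that fuses the inner mitochondrial membrane. Every animal was fed a high fat diet, so the diet is shared by both groups. The promoter that drove the deletion, the exons removed, and the sex and age of the animals are not given in the labels. Nor do these say that each library is a separate animal, so every p-value reflects how far these libraries spread, and some of that may be technical. In a bulk sample, fewer cells of a type and less RNA per cell cannot be told apart.

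Synthetases of the cytosol supply charged tRNA for the translation of nuclear messages on cytosolic ribosomes, and a separate nuclear-encoded set is imported to charge the tRNAs of the mitochondrial genome. Several cytosolic enzymes sit in the multisynthetase complex, held together by the scaffold proteins Aimp1, Aimp2 and Eef1e1. Uncharged tRNA activates the kinase GCN2 (Eif2ak4), which phosphorylates eIF2alpha and favours translation of the transcription factor ATF4. Genes of many cytosolic synthetases are known targets of ATF4, which binds with C/EBP proteins to a composite promoter element.

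Library totals lay between 16076404 and 20471271 expected counts. Opa1 itself stood at 39.9 to 57.6 CPM, counts scaled to a common library size, in CTRL and at 24.7 to 34.4 CPM in OPA1 LKO, with no overlap (log2 fold change -0.63 ± 0.17 SE, adjusted p = 0.0539 by the edgeR quasi-likelihood test with Benjamini-Hochberg adjustment). The difference in Opa1 did not pass the threshold, and the source of the remaining Opa1 RNA was not tested. CTRL replicate 1 stood apart, with Apoe at 134 CPM against at least 20759 CPM in each of the other libraries. Of the hepatocyte markers Alb, Apoa1, Ttr, Serpina1c and Cps1, 0 of 5 passed the test, and their summed level was 58372 to 104269 CPM in CTRL and 69628 to 89579 CPM in OPA1 LKO. 

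Of the 20 cytosolic synthetases, 3 rose in OPA1 LKO and 0 fell at an adjusted p under 0.05, and these were Vars, Sars and Gars, which charge valine, serine and glycine. Over all 14036 genes tested, 3.34% were called higher and 2.69% lower. Of the 17 mitochondrial synthetases, 0 passed in either direction, with 1 higher (Tars2) and 1 lower (Hars2) at an unadjusted p under 0.05. At that unadjusted level, 1611 of all 14036 genes were higher and 1726 lower, so these single genes do not stand out. DESeq2 and limma-voom also called 0 of the 17. A difference between the compartments in response was not tested as such, and the values of both sets are given side by side.

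Vars, on chromosome 17 from 35000907 to 35016329 (GRCm38.p6), stood at 29.5, 23.2, 27.9, 21.2 and 24.1 CPM in CTRL replicates 1 to 5 and at 57.2, 38.1 and 53.2 CPM in OPA1 LKO replicates 1 to 3. The lowest OPA1 LKO library lay above the highest CTRL library. The enzyme it encodes attaches valine to its tRNA and works in the cytosol together with elongation factor 1. The rise was 0.97 ± 0.16 (log2, SE; adjusted p = 0.0110 by the edgeR quasi-likelihood test with Benjamini-Hochberg adjustment, used for every adjusted p of a gene here). Of the 8 fits without a library, 7 passed. Without OPA1 LKO replicate 1 the log2 fold change was 0.86 and the adjusted p was 0.0651.

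Sars, which attaches serine and also supplies the seryl tRNA used for selenocysteine, lies on chromosome 3 from 108424864 to 108445259. Its levels were 83.0, 70.8, 70.2, 57.4 and 62.3 CPM in CTRL replicates 1 to 5 and 170.2, 93.1 and 121 CPM in OPA1 LKO replicates 1 to 3. All OPA1 LKO libraries were above all CTRL libraries, with the first of them far above the other two. The log2 fold change was 0.90 ± 0.20 (SE, adjusted p = 0.0285), and it passed in 3 of the 8 fits without a library. Leaving out OPA1 LKO replicate 1 gave a log2 fold change of 0.64 and an adjusted p of 0.149.

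Gars, which charges glycine tRNA in the cytosol and in mitochondria, is on chromosome 6 from 55038001 to 55079504. It stood at 39.0, 38.0, 34.5, 30.6 and 31.5 CPM in CTRL replicates 1 to 5 and at 66.4, 44.3 and 54.2 CPM in OPA1 LKO replicates 1 to 3. Here too the groups did not overlap, and OPA1 LKO replicate 1 was the highest library. The log2 fold change of 0.66 ± 0.15 (SE) had an adjusted p of 0.0355, and 2 of the 8 fits without a library passed. It was 0.50 with an adjusted p of 0.186 without OPA1 LKO replicate 1.

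**Figure D1:**
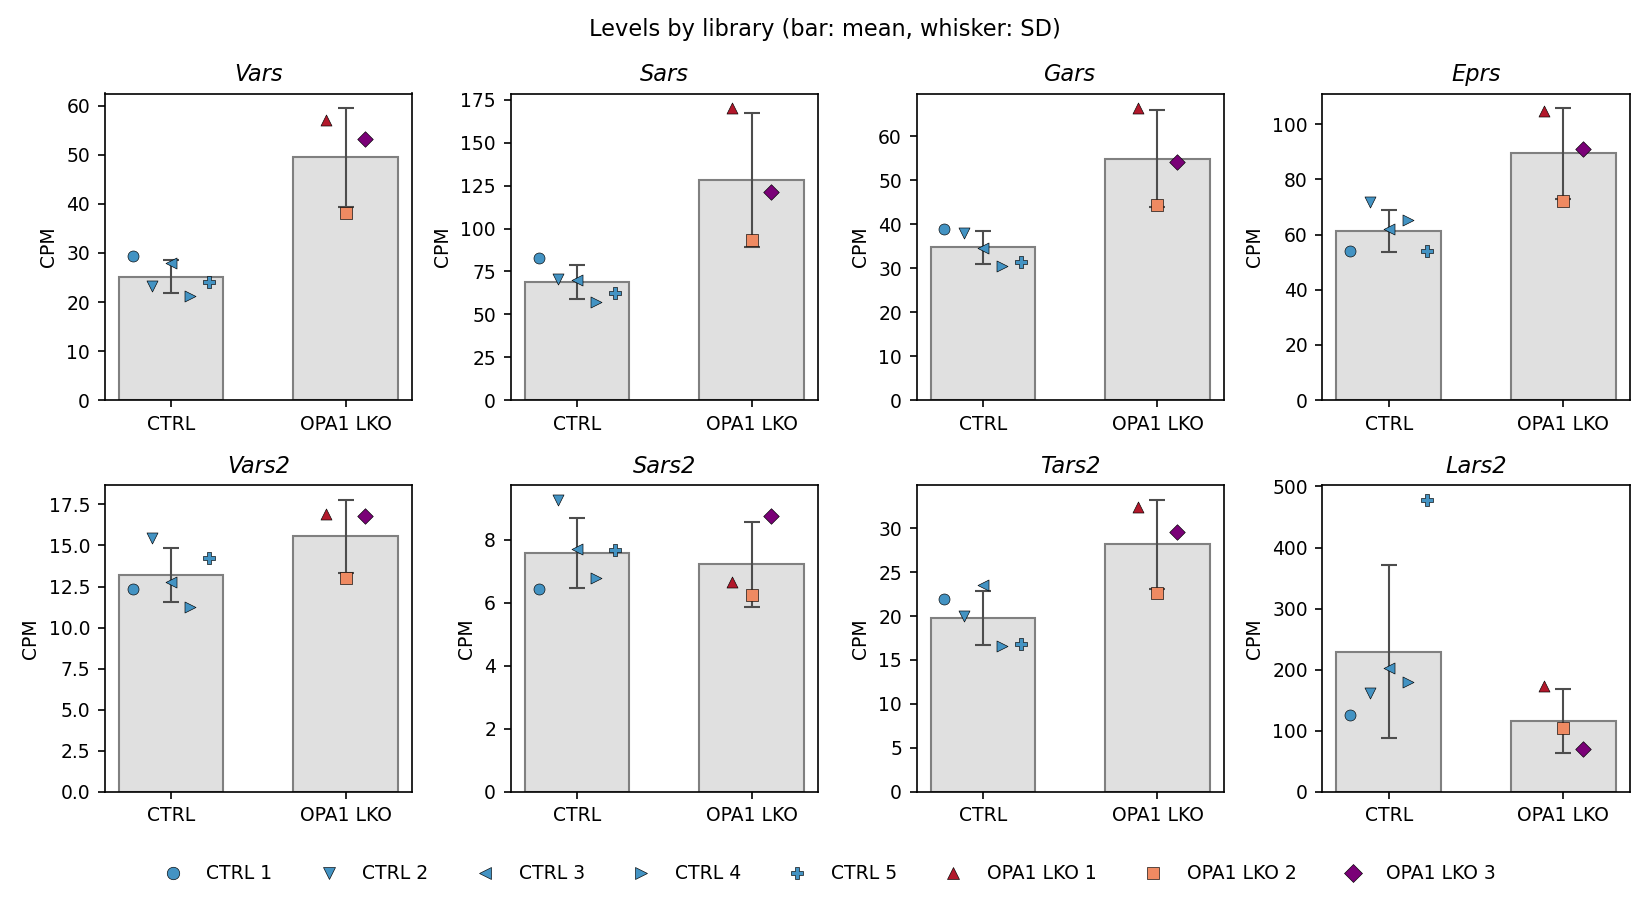
Level in CPM (vertical axes, from 0) of Vars, Sars, Gars and Eprs (upper row) and of the mitochondrial Vars2, Sars2, Tars2 and Lars2 (lower row), with each point a library, bars the group means and whiskers the SD over 5 CTRL or 3 OPA1 LKO libraries. In the upper row all OPA1 LKO points lie above all CTRL points, whereas in the lower row the groups overlap and CTRL replicate 5 reaches 479 CPM for Lars2.

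The element recognised by C/EBP and ATF dimers was searched as TGATGNAA on both strands in the RefSeq promoters of GRCm38.p6, from 250 bases before to 50 after each gene start. Entries were present for 27 of the 37 members and not for 10, among them Cars, Hars, Hars2, Lars, Nars, Pars2, Rars, Vars and Wars. A match was found in 5 of the 13 cytosolic promoters (Aars, Gars, Iars, Tars and Yars) and in 0 of the 14 mitochondrial ones, against 3.97% of all 32851 promoters of the table. Of these 5 genes, Gars rose, whereas Aars, Iars, Tars and Yars did not pass the test (log2 fold changes of 0.12, 0.58, -0.06 and 0.02). Aars held 2 matches, and in Gars the match lay from position -30 to -23. The 250 bases before the start of Gars (chr6:55037751-55038000, plus strand) and of Sars (chr3:108445260-108445509, minus strand) are shown 5′ to 3′ because both genes rose and only the former holds a match, in capitals as TTTCATCA, the reverse complement. The Sars window has no match to these letters, which says nothing of the factor itself.
Gars: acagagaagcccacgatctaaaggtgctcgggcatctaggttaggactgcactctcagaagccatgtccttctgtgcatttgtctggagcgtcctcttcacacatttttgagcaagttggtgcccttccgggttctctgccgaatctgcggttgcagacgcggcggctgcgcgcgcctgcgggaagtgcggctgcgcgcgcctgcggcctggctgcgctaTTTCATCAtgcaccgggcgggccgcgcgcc
Sars: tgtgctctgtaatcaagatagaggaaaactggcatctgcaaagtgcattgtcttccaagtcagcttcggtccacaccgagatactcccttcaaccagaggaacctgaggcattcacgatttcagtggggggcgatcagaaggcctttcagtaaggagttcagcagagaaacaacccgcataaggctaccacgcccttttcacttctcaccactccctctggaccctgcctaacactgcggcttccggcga

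Beyond these, Eprs, Iars, Lars, Farsa and Wars had an unadjusted p under 0.05, and each had a positive fold change that missed the adjusted threshold. Eprs, the fused enzyme that charges both glutamate and proline and belongs to the multisynthetase complex, stood at 54.0, 71.8, 62.1, 65.1 and 54.1 CPM in CTRL replicates 1 to 5 and at 104.9, 72.2 and 91.1 CPM in OPA1 LKO replicates 1 to 3. The groups did not overlap, although the highest CTRL and the lowest OPA1 LKO library nearly met. Its log2 fold change was 0.54 ± 0.16 (SE, adjusted p = 0.0715), and it passed with upper-quartile scaling (adjusted p = 0.0385) and by DESeq2 (adjusted p = 0.0156).

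Iars, the isoleucine enzyme of the complex, stood at 13.4, 20.6, 9.62, 17.5 and 17.8 CPM in CTRL replicates 1 to 5 and at 26.5, 23.5 and 20.7 CPM in OPA1 LKO replicates 1 to 3. The groups touched without crossing, and the spread within CTRL was wide (0.58 ± 0.22 log2, SE, adjusted p = 0.146). Lars, the leucine enzyme, which also acts as a leucine sensor upstream of mTORC1, had CTRL levels of 25.9, 24.6, 19.3, 20.6 and 22.2 CPM and OPA1 LKO levels of 34.6, 24.7 and 34.0 CPM. OPA1 LKO replicate 2 fell inside the CTRL range, and the other two lay above it (0.46 ± 0.15 log2, SE, adjusted p = 0.102).

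Farsa encodes the alpha subunit of the phenylalanine enzyme, a tetramer with the beta subunit Farsb. It stood at 16.3, 16, 12.5, 13.8 and 13.9 CPM in CTRL replicates 1 to 5 and at 22.4, 16.4 and 17.9 CPM in OPA1 LKO replicates 1 to 3, with groups that just failed to overlap (0.39 ± 0.15 log2, SE, adjusted p = 0.148). Farsb was at 19.9 ± 2.93 CPM (SD, n = 5) in CTRL and 19.6 ± 2.22 CPM (SD, n = 3) in OPA1 LKO. Wars, the tryptophan enzyme, which interferon is known to induce, had CTRL levels of 20.2, 15.3, 14.5, 13.4 and 15.4 CPM and OPA1 LKO levels of 22.6, 18.5 and 19.2 CPM. The highest CTRL library, replicate 1, exceeded 2 of the OPA1 LKO libraries (0.35 ± 0.15 log2, SE, adjusted p = 0.200).

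The remaining cytosolic members had unadjusted p-values above 0.05 and log2 fold changes from -0.19 (Dars) to 0.25 (Rars). Kars, the lysine enzyme that serves both compartments from alternatively spliced transcripts, stood at 40.0, 51.6, 42.0, 44.1 and 42.2 CPM in CTRL replicates 1 to 5 and at 50.9, 48.8 and 42.1 CPM in OPA1 LKO replicates 1 to 3. All OPA1 LKO libraries of Kars lay within the CTRL range (0.10 ± 0.13 log2, SE, adjusted p = 0.667). Aars, the alanine enzyme and the cytosolic member with the highest mean TPM over the 8 libraries, had CTRL levels of 157, 176, 138, 141 and 142 CPM and OPA1 LKO levels of 193, 142 and 157 CPM. Only OPA1 LKO replicate 1 exceeded the CTRL range of Aars (0.12 ± 0.15 log2, SE, adjusted p = 0.660), and without that library its log2 fold change was -0.01. Positive values that did not pass were also seen for Cars, Nars, Hars, Qars, Mars and Yars (0.02 to 0.21), and negative ones for Farsb, Tars and Dars (-0.02, -0.06 and -0.19). Of these, Hars, Qars, Mars and Yars turned negative, and Farsb, Tars and Dars positive, in at least 1 fit without a library.

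As a set, 17 of the 20 cytosolic members had a positive log2 fold change and 3 a negative one, with a median of 0.18. Over all 14036 genes tested, 6581 were positive and the median was -0.03. The members were measured in the same libraries, so their signs are not independent. Under the other scalings the cytosolic median exceeded that of all genes by 0.21 to 0.25. In CPM, 6 of the 20 (Vars, Sars, Gars, Eprs, Farsa and Iars) had all OPA1 LKO libraries above all CTRL libraries, a pattern found in 8.0% of all genes tested. The 8 members of the multisynthetase complex (Dars, Eprs, Iars, Kars, Lars, Mars, Qars and Rars) held 0 of the calls, with a median of 0.18. Of the 8, 3 were higher at an unadjusted p under 0.05, against 1611 of all 14036 genes. The 12 members outside it held all 3 calls, also with a median of 0.18. By catalytic fold, the 9 class I enzymes of the cytosol were all positive (median 0.25) and 7 of the 10 class II enzymes were (median 0.11), with Eprs, which carries a domain of each class, left out. The difference between classes was not tested.

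**Figure D2:**
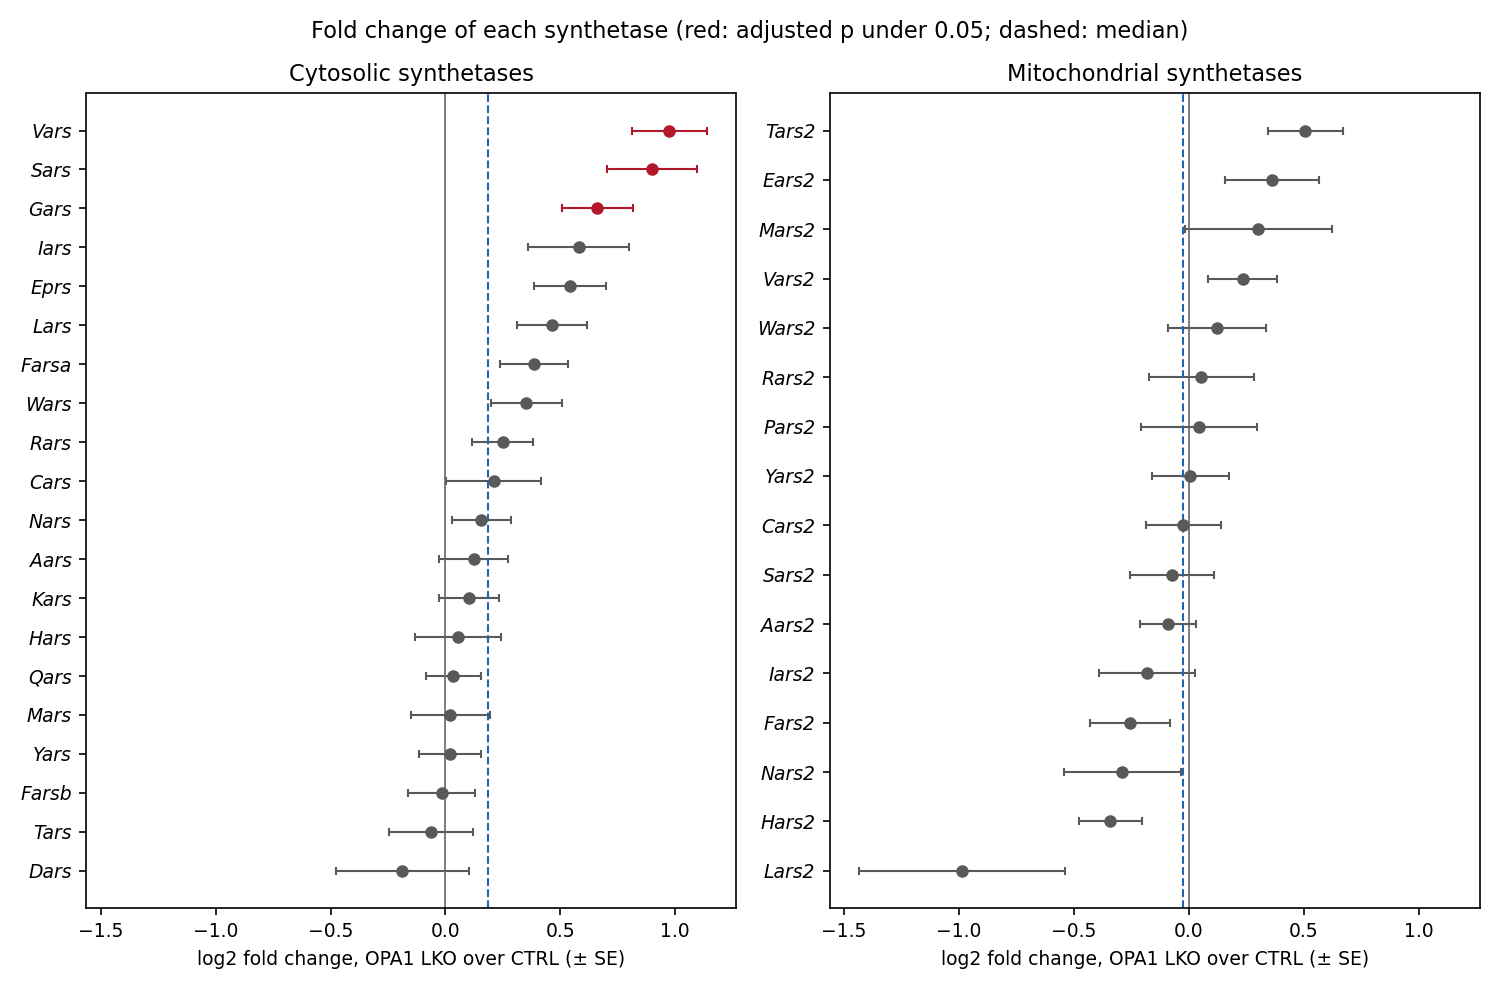
Log2 fold change of OPA1 LKO over CTRL (horizontal axes) with its SE for 20 cytosolic and 16 mitochondrial synthetases, where red marks an adjusted p under 0.05 and the dashed line is the median of the whole set of 20 or 17. The cytosolic median is 0.18 and the mitochondrial one -0.02, and the red points are Vars, Sars and Gars.

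Most cytosolic members were highest in the same library. OPA1 LKO replicate 1 was the highest OPA1 LKO library for 17 of the 20 cytosolic members and the highest of all 8 libraries for 13 of them. For the mitochondrial members it was the highest OPA1 LKO library in 8 of 17. How often this library was the highest over all genes was not counted. Without this library 0 cytosolic members passed, and their median log2 fold change was 0.11. The loss was not confined to the synthetases, since calls over all genes fell from 846 to 198. Summed over the 20 genes, levels in TPM, the length-corrected unit of RSEM, ranged from 246 to 392 in CTRL (317 ± 66.4, SD, n = 5) and from 373 to 500.0 in OPA1 LKO (424 ± 66.9, SD, n = 3), so the sums of the groups overlapped.

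**Figure D3:**
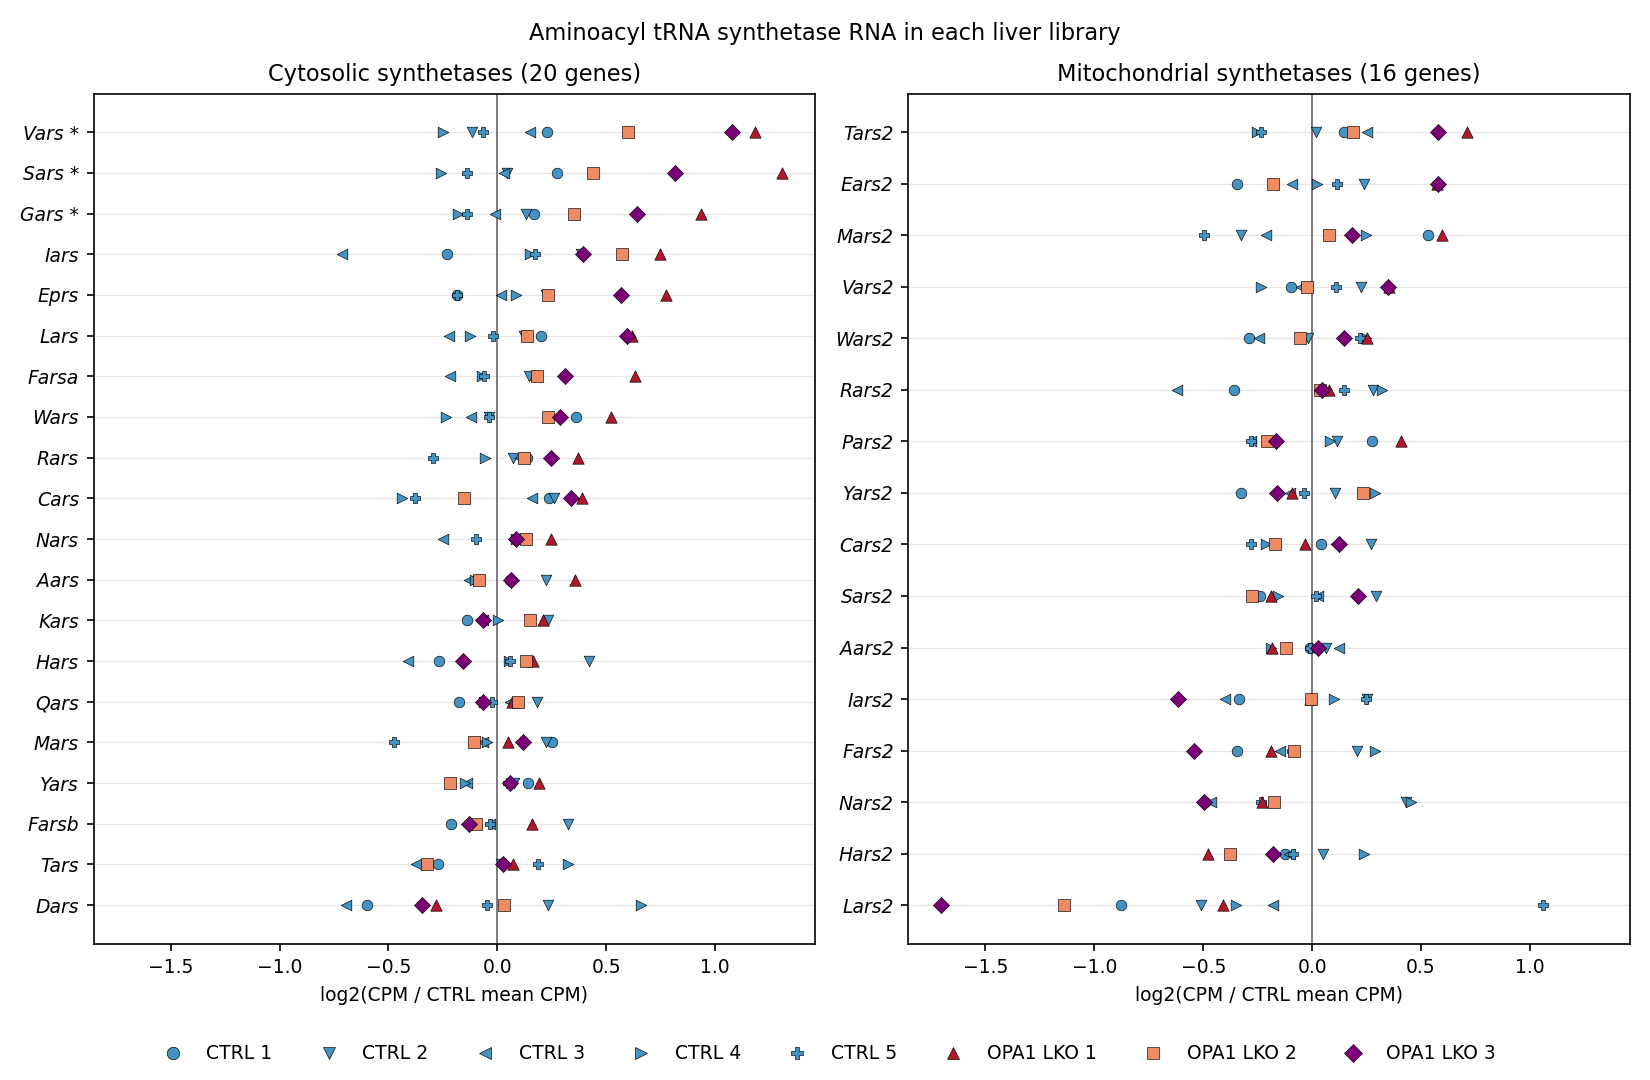
Log2 of the CPM in each library over the CTRL mean CPM (horizontal axes) for 20 cytosolic (left) and 16 mitochondrial (right) synthetases, with a marker for each of the 8 libraries and an asterisk for an adjusted p under 0.05. OPA1 LKO replicate 1 is the rightmost OPA1 LKO marker for 17 of the 20 cytosolic genes.

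Among the mitochondrial synthetases 8 of 17 log2 fold changes were positive and 9 negative, against 6581 positive of all 14036 genes tested. The median of the 17 was -0.02, close to that of all genes. The sign of this median changed under other scalings, but relative to the median of all genes it stayed between -0.02 and 0.01 over the scalings tried. Tars2, the mitochondrial threonine enzyme, stood at 21.9, 20.1, 23.6, 16.6 and 16.8 CPM in CTRL replicates 1 to 5 and at 32.5, 22.6 and 29.5 CPM in OPA1 LKO replicates 1 to 3. OPA1 LKO replicates 1 and 3 exceeded every CTRL library, and replicate 2 did not (0.51 ± 0.17 log2, SE, adjusted p = 0.10). Hars2, the histidine enzyme, had CTRL levels of 17.2, 19.4, 17.4, 22.2 and 17.6 CPM and OPA1 LKO levels of 13.5, 14.4 and 16.6 CPM. It was the single mitochondrial member with all OPA1 LKO libraries below all CTRL libraries (8.41% of all genes tested), with a log2 fold change of -0.34 ± 0.14 (SE, adjusted p = 0.165).

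Lars2, the mitochondrial leucine enzyme, had the most negative log2 fold change and the widest spread. It stood at 125, 161, 203, 180.3 and 479 CPM in CTRL replicates 1 to 5 and at 173, 104 and 70.5 CPM in OPA1 LKO replicates 1 to 3. CTRL replicate 5 lay far above the rest, and OPA1 LKO replicate 1 lay inside the CTRL range. The log2 fold change was -0.99 ± 0.45 (SE, adjusted p = 0.215), and without CTRL replicate 5 it was -0.53 with an adjusted p of 0.359. Expected counts of Lars2 were not whole numbers in any of the 8 libraries, the mark of reads that RSEM divided between places. Its annotated span holds 8819 bases of the lncRNA gene Gm46137, but the source of the divided reads was not tested. Fars2, whose span holds 20270 bases of the lncRNA gene Gm40912, had whole counts in every library.

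The other mitochondrial members described here had log2 fold changes from -0.29 (Nars2) to 0.36 (Ears2), with adjusted p-values of at least 0.313. Ears2, Mars2, Vars2, Wars2, Rars2, Pars2 and Yars2 were positive, with Ears2 at 9.73 ± 1.45 CPM (SD, n = 5) in CTRL and 12.5 ± 3.40 CPM (SD, n = 3) in OPA1 LKO. Cars2, Sars2, Aars2, Iars2, Fars2 and Nars2 were negative. Nars2, the asparagine enzyme, for instance, was at 12.3 ± 4.08 CPM (SD, n = 5) in CTRL and at 10.1 ± 1.15 CPM (SD, n = 3) in OPA1 LKO. Summed over the mitochondrial members other than Lars2, the level was 106 ± 16.7 TPM (SD, n = 5) in CTRL and 113 ± 12.8 TPM (SD, n = 3) in OPA1 LKO. In CPM the same sum was 219 ± 23.0 (SD, n = 5) in CTRL and 214 ± 12.2 (SD, n = 3) in OPA1 LKO, so the direction depended on the unit.

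Compared per length, the family spanned a wide range of levels. Over the 8 libraries Aars (mean 52.9 TPM, 37.7 to 72.1) and Lars2 (mean 52.4 TPM, 19.4 to 131) came first, with ranges that overlapped. In CTRL alone Lars2 had the higher mean (62.2 ± 38.8 TPM, SD, n = 5, against 49.2 ± 11.8 for Aars), and in OPA1 LKO Aars did (59.1 ± 11.4 TPM, SD, n = 3, against 36.2 ± 18.0 for Lars2). Nars (31.4 TPM), Sars (28.6 TPM), Kars (25.6 TPM), Eprs (24.3 TPM), Fars2 (22 TPM), Gars (20.6 TPM) and Dars (20.1 TPM) followed, each overlapping its neighbours in that order. Vars, with the largest rise, was at 8.11 ± 2.15 TPM (SD, n = 5) in CTRL and 17.2 ± 3.24 TPM (SD, n = 3) in OPA1 LKO. At the low end stood Pars2 (1.5 TPM, 0.96 to 2.17), Wars2 (1.01 TPM, 0.76 to 1.17) and Mars2 (0.701 TPM, 0.43 to 1.08), which charge proline, tryptophan and methionine in mitochondria.

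Each cytosolic gene was set against the mitochondrial gene for the same amino acid within each library, which gave 18 log2 ratios of CPM, since Eprs and Fars2 each enter in 2 of them. Gars, Kars and Qars have no mitochondrial partner in the family. The ratio was higher on average in OPA1 LKO for 16 of the 18 pairs, with a median difference of 0.24. The ratios use the same CPM values as the levels above, so they are not independent of the cytosolic rises. For Sars over Sars2 the log2 ratio was 3.69, 2.93, 3.19, 3.08 and 3.02 in CTRL replicates 1 to 5 and 4.68, 3.90 and 3.79 in OPA1 LKO replicates 1 to 3. Vars over Vars2 gave 1.25, 0.59, 1.13, 0.91 and 0.75 in CTRL and 1.76, 1.55 and 1.66 in OPA1 LKO. In both pairs every OPA1 LKO library lay above every CTRL library, and the same held for Iars over Iars2 and for Eprs over Pars2.

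The differences of these 4 pairs were 0.94, 0.73, 0.80 and 0.50, each with p = 0.0357 by an exact two-sided permutation test, the smallest that 5 against 3 libraries allow. Adjusted over the 18 pairs this became 0.161, so 0 pairs passed, and the design could pass the threshold only if many more pairs separated. The pairs Tars over Tars2 (-0.56) and Mars over Mars2 (-0.29) had the opposite sign. For Tars over Tars2, OPA1 LKO values of 0.10, 0.22 and 0.19 lay within the CTRL range of 0.11 to 1.32 except for the first. With the ratio taken in TPM 5 pairs did not overlap, and without CTRL replicate 1 the count was 8 and without OPA1 LKO replicate 2 it was 7.

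**Figure D4:**
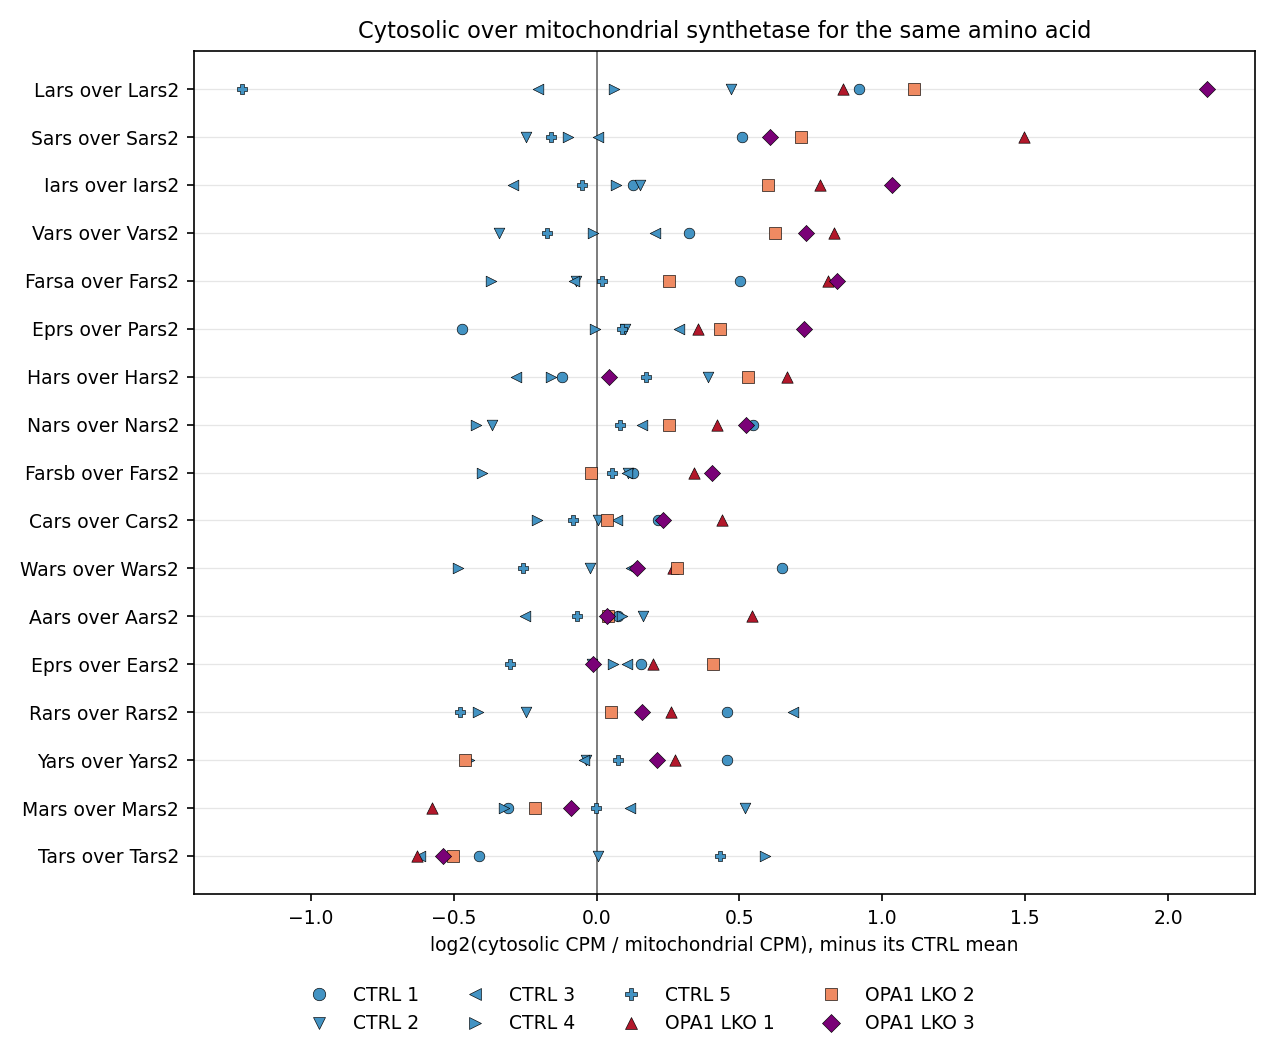
Log2 ratio of cytosolic over mitochondrial CPM in each library minus its CTRL mean (horizontal axis) for 17 of the 18 pairs of synthetases that charge the same amino acid, with a marker for each of the 8 libraries. For Sars, Iars, Vars and Eprs over Pars2 all OPA1 LKO markers lie to the right of all CTRL markers, and for Tars and Mars the OPA1 LKO mean lies to the left of 0.

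Transcript tables allowed the isoforms to be compared as shares of each gene's TPM. Among 42 transcripts of 18 member genes with a mean of at least 1 TPM, 0 passed an exact two-sided permutation test after Benjamini-Hochberg adjustment (lowest adjusted p = 0.5). This test could pass a transcript only if most of the 42 separated, so the 0 does not show that shares were unchanged. For 3 transcripts the groups did not overlap (exact p = 0.0357 each, the smallest possible). Of these, 2 are the transcripts of Sars, whose shares mirror each other. For Sars the transcript NM_001204979.1 (512 codons) held 90.8 ± 1.5% (SD, n = 5) in CTRL and 87.7 ± 1.88% (SD, n = 3) in OPA1 LKO, and NM_011319.3 (536 codons) held the rest. The share of the transcript with the longer coding region ran from 7.56 to 10.7% in CTRL and from 10.8 to 14.4% in OPA1 LKO. In Farsa, XM_006531288.3 held 22.5, 7.93, 31.1, 27.9 and 0% in CTRL replicates 1 to 5 and 41.6, 44.9 and 69.4% in OPA1 LKO replicates 1 to 3, shares that varied widely within each group.

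Kars shares bear on its 2 compartments, since in humans the longer protein is the mitochondrial one. The transcript NM_053092.3 (595 codons) held 93.7 ± 4.23% (SD, n = 5) in CTRL and 97.5 ± 0.385% (SD, n = 3) in OPA1 LKO. The 2 transcripts of 624 codons together held 8.69, 4.99, 0, 0 and 11.2% in CTRL replicates 1 to 5 and 2.69, 2.67 and 2.01% in OPA1 LKO replicates 1 to 3. The OPA1 LKO shares lay within the CTRL range. Gars had a single transcript in the table, so its cytosolic and mitochondrial forms could not be separated.

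Around the synthetases, the scaffolds of the complex gave 0 calls of 3, with log2 fold changes of 0.37 ± 0.14 for Aimp1, 0.30 ± 0.15 for Aimp2 and 0.10 ± 0.19 for Eef1e1 (SE). Of the 13 synthetase-like genes and mitochondrial partners of aminoacylation, such as the Gatb, Gatc and Qrsl1 subunits that make mitochondrial glutaminyl tRNA, 0 passed. Cytosolic initiation factors gave 2 of 37 higher and 0 lower, namely Eif3c, a subunit of the scaffold factor eIF3 (0.66 ± 0.15 log2, SE, adjusted p = 0.0325), and Eif2b3, a subunit of the exchange factor that eIF2alpha phosphorylation inhibits (0.64 ± 0.16 log2, SE, adjusted p = 0.0435). That share is near the 3.34% of all genes called higher, and the count was 0 with the replicate block, on both log2 TPM scales and in 6 of the 8 fits without a library. Of cytosolic elongation and termination factors 0 of 10 passed, of mitochondrial translation factors 0 of 14, and of genes for mitochondrial tRNA processing and modification 0 of 19.

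Genes of the amino acid stress response, many of them ATF4 targets, gave 10 of 28 higher and 0 lower, with a median log2 fold change of 0.81. Over all genes tested, 3.34% were called higher and 2.69% lower, with a median of -0.03. Asns, which makes asparagine, was at 2.44, 0.225, 1.17, 0.480 and 0.516 CPM in CTRL replicates 1 to 5 and at 37.7, 13.5 and 21.4 CPM in OPA1 LKO replicates 1 to 3 (4.61 ± 0.57 log2, SE, adjusted p = 0.00247). Trib3, a pseudokinase that restrains this response, ranged from 9.62 to 24.2 CPM in CTRL, against 156, 49.3 and 104 CPM in OPA1 LKO (2.84 ± 0.38 log2, SE, adjusted p = 0.00351). Nupr1, a stress-induced chromatin protein, rose by 4.87 ± 0.63 (log2, SE, adjusted p = 0.00312), and Ddit4, an inhibitor of mTORC1, by 2.85 ± 0.27 (log2, SE, adjusted p = 0.000766). In Asns and Trib3, OPA1 LKO replicate 1 was highest and replicate 2 lowest, as in Vars, Sars and Gars. The order differed in Ddit4 (31.0, 27.5 and 52.2 CPM in OPA1 LKO replicates 1 to 3) and in Phgdh, also called (8.17, 4.14 and 2.72 CPM). Replicate 1 was the highest OPA1 LKO library for 9 of the 10 called genes, and how often it was so over all genes was not counted. A link between these genes and the synthetases was not tested. Without replicate 1, 6 of the list passed. In the fit of all libraries 26 of the list had a positive log2 fold change, against 6581 of all 14036 genes tested. The 2 negative ones of the list were Shmt2 (-0.41 ± 0.14, SE, adjusted p = 0.115) and Gdf15 (-0.13 ± 0.33, SE, adjusted p = 0.841). Atf4 itself (0.34 ± 0.18 log2, SE, adjusted p = 0.275) and Chac1 (0.001 ± 0.29 log2, SE) did not pass. Of the kinases that phosphorylate eIF2alpha, 0 of 4 passed. Eif2ak2 (-0.54 ± 0.16 log2, SE, adjusted p = 0.0765) and Eif2ak1 (-0.27 ± 0.12 log2, SE, adjusted p = 0.197) had all OPA1 LKO libraries below all CTRL libraries. That pattern was found in 8.41% of all genes tested. Eif2ak3 was at 0.29 ± 0.23 and Eif2ak4 at 0.02 ± 0.15 (log2, SE).

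Some markers of bile duct cells differed between the groups. Of Krt19, Epcam, Sox9, Spp1 and Krt7, 3 of 5 passed as higher (Spp1, Sox9 and Krt7), against 3.34% of all genes tested. The summed level was 17.5 to 63.2 CPM in CTRL and 139 to 202 CPM in OPA1 LKO, with no marker at 0 in all libraries. Spp1 made up most of the OPA1 LKO sum (154 ± 28.5 CPM, SD, n = 3). Epcam (0.96 log2, adjusted p = 0.614) and Krt19 (-0.50 log2, adjusted p = 0.690) did not pass, and both were highest in CTRL replicate 3, at 16.8 and 22.3 CPM. In the other CTRL libraries Epcam was at 0.506 to 0.892 CPM and Krt19 at 0.319 to 1.03 CPM. These values lay below every OPA1 LKO library (5.15 to 10.5 CPM for Epcam and 2.13 to 5.67 CPM for Krt19). For the stellate markers 0 of 5 passed, and sums were 54.1 to 86.3 CPM in CTRL and 87.1 to 146 CPM in OPA1 LKO. Macrophage, endothelial and lymphocyte markers gave 0 of 5 each, with sums that overlapped between groups. The part of these cells in the synthetase values was not tested.

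Some members overlap neighbours in annotated span, from gene start to gene end with introns included. Mars overlaps Ddit3, a stress gene that rose, by 71 bases, and Hars overlaps Hars2 by 4 bases. Aars overlaps Ddx19b by 3974 bases. The library kit keeps strand, but whether the counting used it is not given in the sources used here. Reads from such stretches may therefore be uncertain in their gene of origin. Counts were whole numbers in every library for 34 of the 37 members, Aars, Hars and Hars2 among them, and not for Lars2, Farsb and Mars.

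The calls of Vars, Sars and Gars were close to the threshold under several choices. Vars passed under all alternatives tried except the fit without OPA1 LKO replicate 1. Sars and Gars missed it on both log2 TPM scales and with the replicate number as a block. Their direction stayed positive under every alternative.

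**Figure D5:**
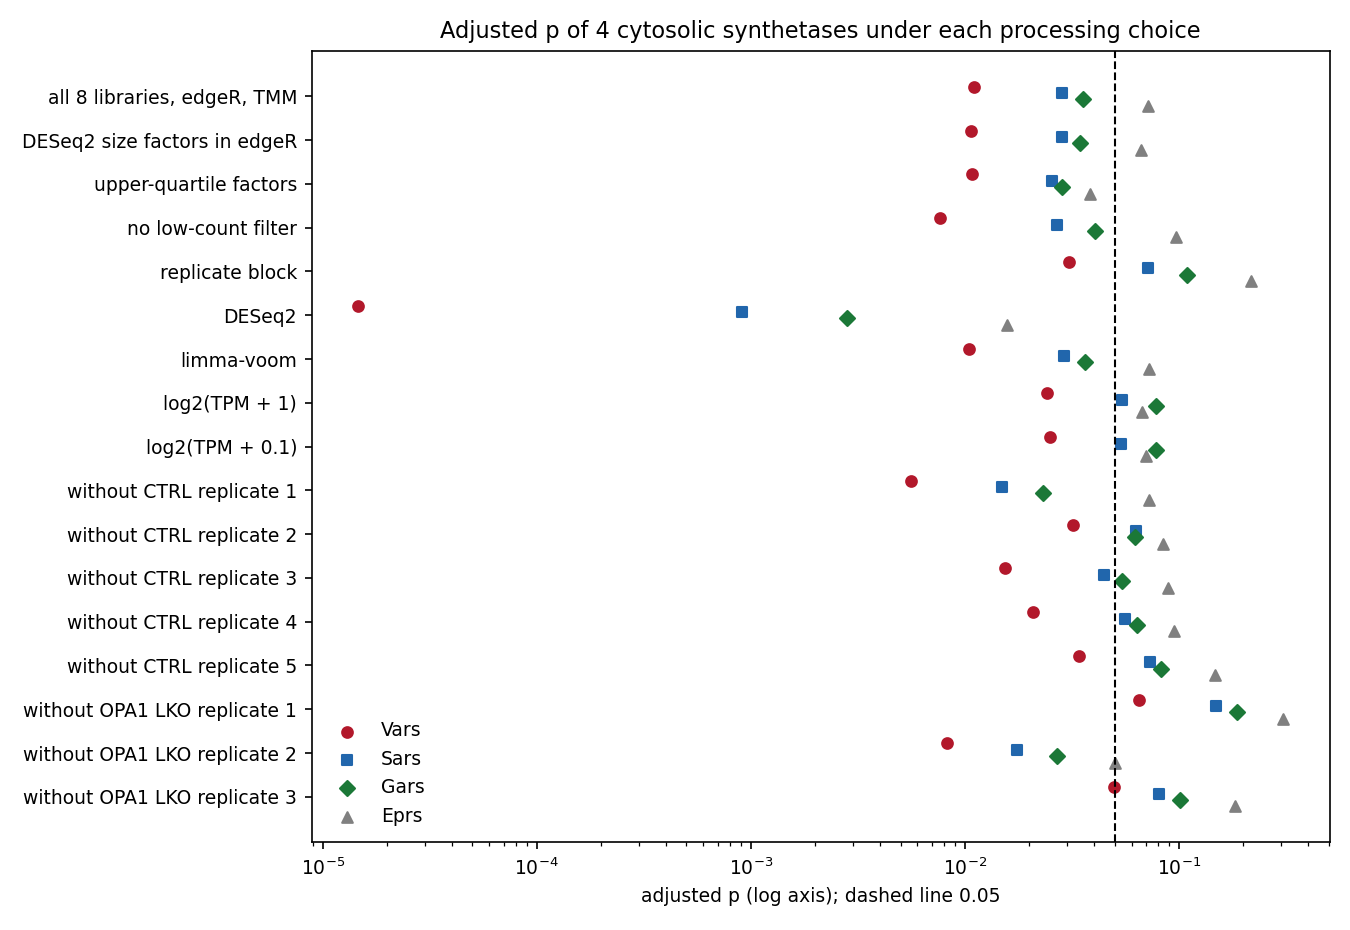
Adjusted p (horizontal log axis, dashed line at 0.05) of Vars, Sars, Gars and Eprs under each processing choice, from the fit of all 8 libraries by edgeR with TMM scaling at the top to the fits that leave out a library. Without OPA1 LKO replicate 1 all 4 genes lie to the right of the line, with Vars at 0.0651.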

How the data were processed

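Per the submitters' processing notes, the tools were STAR, RSEM, StringTie and MultiQC, without versions, with the mouse build mm10. The authors deposited expected counts, which RSEM estimates per gene and transcript without normalization, and TPM, which is scaled for length and depth. Per the labels' protocols, total RNA went into stranded mRNA libraries.

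Expected counts were rounded, filtered with filterByExpr (minimum count 10, total 15), scaled by TMM and tested with edgeR 4.0.16 (quasi-likelihood, R 4.3.3), with Benjamini-Hochberg adjustment over 14036 genes and a threshold of 0.05. DESeq2 1.42.0 and limma 3.58.1 were alternatives. CPM uses the TMM-scaled library sizes. Transcript shares and ratios were tested by exact permutation over 56 divisions of the libraries. On simulated counts of this comparison (14036 genes, 50 changed at each fold) edgeR recovered 2% at 1.5-fold, 44% at 2-fold, 78% at 4-fold and 94% at 8-fold, with 7 of 13836 unchanged genes called. The changed genes were drawn from all genes tested, whatever their level, so these shares do not give the recovery for Vars itself.

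The members, gene lists and tests were chosen with earlier results of these data known. Every member is named except 1 mitochondrial synthetase, which stays in the counts and is not reported here. Values per library are given for members with an unadjusted p under 0.05, for Gars and Kars, and for the most abundant cytosolic and mitochondrial member in TPM. From other lists, called genes are named, at most the 4 with the smallest p. Genes given from lists with 0 calls, Krt19, Epcam, Apoe, Atf4, Chac1, Gdf15, Phgdh and Shmt2 were chosen after their values were seen. Gene spans, overlaps and promoters come from RefSeq on GRCm38.p6. A listed mitochondrial translation factor, Mtres1, did not match the table.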

Additional observations from a re-analysis of the deposited data

Results flagged for a closer look

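Among the CTRL values of the 37 members, 2 single libraries stood far from the other 4 relative to the range of the group. Lars2 reached 479 CPM in CTRL replicate 5, against 203 CPM in the next library. Wars reached 20.2 CPM in CTRL replicate 1, against 15.4 CPM in the next. Chance alone marks about 1 in 20 such groups, and 37 were examined.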

How the results depend on the processing

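The test called 846 of 14036 genes (55.4% of them higher). The count was 1692 by DESeq2, 560 on log2(TPM + 0.1), and 198 (without OPA1 LKO replicate 1) to 1701 (without CTRL replicate 1) when a library was left out. The share of calls that were higher was 67.0% with upper-quartile factors, 82.5% on log2(TPM + 1) and 79.8% on log2(TPM + 0.1). The cytosolic count of 3 became 1 on both log2 TPM scales and ranged from 0 (without OPA1 LKO replicate 1) to 3 when a library was left out. The mitochondrial count was 0 in every setting tried. The mitochondrial median of -0.02 turned to 0.0572 with upper-quartile factors, 0.107 on log2(TPM + 1) and 0.125 on log2(TPM + 0.1), and ranged from -0.068 to 0.0314 when a library was left out. These scales also moved the median of all genes from -0.03 to 0.05, 0.09 and 0.15. Aars ranged from -0.012 to 0.21 when a library was left out. The call of Vars was lost in 1 of 16 alternatives, of Sars in 8 and of Gars in 9, and Eprs gained it in 2. The 2 initiation factors became 0 to 4 over all alternatives. With the replicate number as a block, 367 genes and 1 cytosolic synthetase passed. Deviations of same-numbered libraries correlated at 0.072, 0.0537 and 0.175, which did not meet the criterion for pairing (over 0.1 in every pair), so the block is given here only. The causes of these changes were not tested. Ratios in TPM, ratios without a library, and all alternatives for the stress and initiation lists were added after seeing the data. With 3 OPA1 LKO libraries, the simulated test recovered 2% of changes at 1.5-fold and 44% at 2-fold, over genes of all levels. Rises under 2-fold could still be called, as Vars (1.96-fold), Sars (1.86-fold) and Gars (1.58-fold) were.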
